A study of Mus musculus with 15 samples.

Results

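The growth hormone signaling and IGF1 axis was followed here through 9 genes of the mouse liver, chosen by name: the receptor gene Ghr, the signal transducers Stat5a and Stat5b, the feedback inhibitors Socs2 and Cish, the transcriptional repressors Bcl6 and Cux2, and the secreted products Igf1 and Igfals. All 9 were found among the 56980 gene identifiers of the count table, and 8 passed the filter on low counts. Cux2 did not. The libraries were bulk poly(A) RNA-seq of liver from male, wild-type c57bl6j mice that ate 1 of 3 diets for 9 months from 15 weeks of age. The control diet held 10% fat, the high-fat diet 60% and the ketogenic diet 89.9%. All sample titles also carry the tag ALF, which the 3 diets share. No group carried a further allele or agent. The comparisons used 4 control libraries (replicates 2 to 5), 5 high-fat libraries and 5 ketogenic libraries. Control replicate 1 was left out because the submitters excluded it as contaminated.

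Growth hormone is released by the pituitary in pulses that are more separated in male than in female rodents. In hepatocytes it binds its receptor GHR, which activates the kinase JAK2. JAK2 phosphorylates STAT5A and STAT5B, and these enter the nucleus and bind elements with the core TTCNNNGAA. Textbook targets in liver include Igf1, Igfals, Socs2 and Cish. SOCS2 and CISH act back on the receptor complex, whereas BCL6 and CUX2 are known from mouse liver as repressors that share binding regions with STAT5. The pulse pattern sets much of the sex difference of rodent liver, so male-biased and female-biased liver genes were examined beside the axis.

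Stretches of promoter sequence are shown first because 3 of the members, Cish, Bcl6 and Igfals, hold the STAT5 core in their own promoter windows. The windows are those of RefSeq, on mouse GRCm38.p6, each reaching from 250 bases before a gene's annotated start to 50 bases after it. The motif searched was TTCNNNGAA, which reads the same on both strands. It occurred at least once in 8.30% of all 32851 windows and at least 3 times in 11 windows, or 0.0335%. A window was available for 8 members, Socs2 being the exception. Of the 15 windows of these 8 members, 5 held a match. Capitals mark the matches, and each sequence runs 5′ to 3′ on the gene's strand. The Cish stretch, chr9:107296654-107296683 (plus strand), spans the annotated start, and its 2 cores lie at or just after that start. The Bcl6 stretches are chr16:23988952-23988980 and chr16:23981363-23981451 (minus strand), and the second holds 3 cores between 168 and 80 bases before that start. The Igfals stretches are chr17:24877598-24877626 and chr17:24878163-24878191 (plus strand).
Cish, start: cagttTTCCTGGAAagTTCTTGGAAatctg
Bcl6, first start: agcaaattagTTCTCAGAAttccagaggc
Bcl6, second start: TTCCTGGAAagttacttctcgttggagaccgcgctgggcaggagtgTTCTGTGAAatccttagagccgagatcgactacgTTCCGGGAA
Igfals, first start: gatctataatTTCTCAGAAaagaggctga
Igfals, second start: ctgccaggtgTTCCTAGAAgaggccctgg
The second Bcl6 window was 1 of the 11 windows with 3 cores. No core was found in the windows of Ghr, Stat5a, Stat5b, Cux2 or Igf1, which says only that these letters are absent from those 300 bases. A match is a property of the letters, and binding was not measured.

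The analysed libraries held 16329425 to 25349148 counts. Values below are in CPM, which sets counts against library size after trimmed-mean (TMM) scaling, given as mean ± SD over libraries. Hepatocyte markers were abundant in every library: Alb, the serum albumin gene, lay between 49437 and 122668 CPM. The summed level of 11 hepatocyte markers was 133506 to 170680 CPM in control, 92189 to 127290 CPM in high-fat and 71857 to 120965 CPM in ketogenic libraries, with 1 of the 11 lower on the high-fat diet (3 without ketogenic library 5) and 3 on the ketogenic diet. Ketogenic library 5 stood apart from the other 4 of its diet. Its 10 macrophage markers of the monocyte-derived and lipid-associated kind summed to 1049 CPM, against a median of 230 CPM for its diet. Where leaving it out ends a call made here or moves a count markedly, both values are given. Leaving it out also moved the calls over all genes on the high-fat diet. With all libraries 1016 were higher and 733 lower of 14627, and without it 1472 and 1145 of 14400. Among all genes, 5.01% were lower on the high-fat and 4.60% on the ketogenic diet with all libraries. The labels do not say that the libraries came from separate mice, so the p-values measure the spread between these libraries. Control library 2 held the most pancreatic acinar markers of its diet, 1761 CPM against a control median of 126 CPM. It also held the most neutrophil markers, 89.3 CPM against a control median of 4.54 CPM. The part of these cells in results that turn on control library 2 was not tested. In bulk liver, fewer cells of a type and less RNA per cell cannot be told apart.

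Over the axis as a whole, Stat5a rose on both fat-rich diets, and the feedback inhibitors and Bcl6 differed more between libraries of one diet than between diets. Stat5b rose and Igf1 fell on the high-fat diet, with calls kept in 11 and 7 of 14 fits that each left out 1 library. Both moved the same way on the ketogenic diet without an edgeR call with all libraries. Neither was called between the fat-rich diets. In edgeR's quasi-likelihood fit, with p-values adjusted over 14627 genes by Benjamini-Hochberg, 2 members were higher and 1 lower on the high-fat diet than on the control diet, of 8 tested. Among all genes tested, 12.0% were called in that comparison, 6.95% higher and 5.01% lower. On the ketogenic diet 1 member was higher and 0 were lower than control, where 12.1% of all genes were called, 7.47% higher and 4.60% lower. Between the ketogenic and high-fat diets 0 of the 8 members were called, beside 0.0615% of all genes (0.00684% higher and 0.0547% lower). In that comparison 0 members had an unadjusted p under 0.05 in edgeR, and DESeq2 called 0. The median log2 fold change of the 8 members was -0.31 for high-fat and -0.16 for ketogenic against control, beside 0.01 and 0.03 for all genes tested. The ketogenic median was 0.07 when library totals replaced TMM scaling. The high-fat and ketogenic comparisons share the same 4 control libraries.

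**Figure D1:**
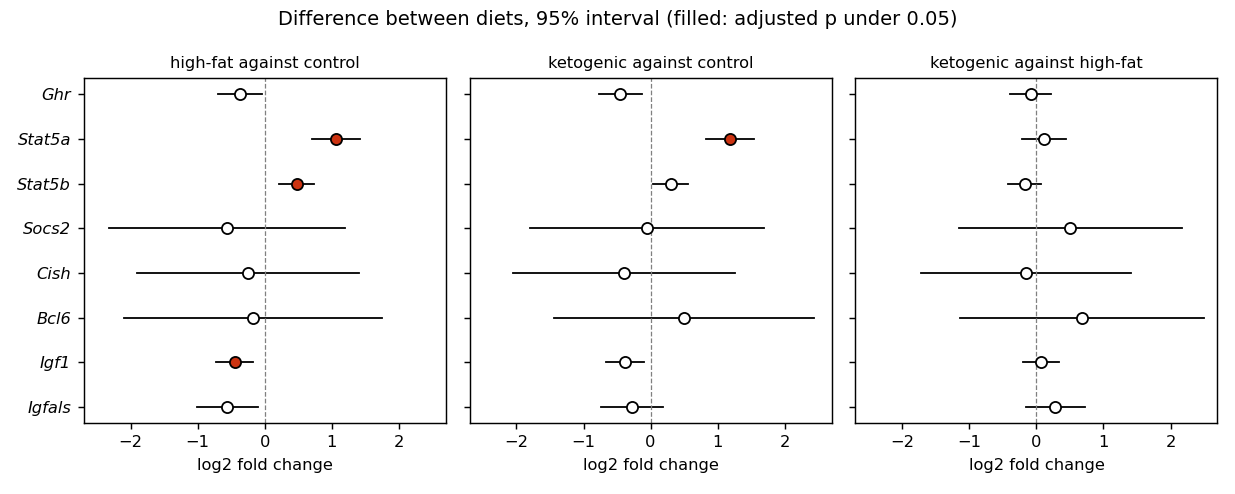
Log2 fold change of the 8 tested members in each comparison of diets, with the 95% interval of edgeR's quasi-likelihood fit. The intervals of Stat5a lie well above 0 in both comparisons with control, and those of Socs2, Cish and Bcl6 span 0 in each comparison.

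Ghr, the receptor that receives the hormone at the hepatocyte surface, was at 628 ± 87.7 CPM (SD, n = 4) on the control diet. The 4 control libraries held 506.8, 702.5, 623.9 and 680.8 CPM. The high-fat libraries held 588.9, 473.0, 472.8, 508.7 and 395.3 CPM, and the ketogenic libraries held 449.9, 462.9, 545.0, 504.9 and 336.9 CPM. Control library 2 was the only control below the highest library of either fat-rich diet. The high-fat mean was 488 ± 70.1 CPM (SD, n = 5), and the ketogenic mean 459.9 ± 78.3 CPM. The log2 fold change against control was -0.37 ± 0.15 (SE) for high-fat (adjusted p = 0.134, edgeR) and -0.45 ± 0.15 for ketogenic (adjusted p = 0.0674, edgeR), neither past the threshold of 0.05. The 95% interval of the ketogenic difference ran from -0.78 to -0.13. DESeq2 called it (-0.47, adjusted p = 0.0238), and edgeR called it without control library 2 (adjusted p = 0.0355) or without ketogenic library 3 (adjusted p = 0.0370). The fat-rich diets differed from each other by -0.08, with an interval from -0.39 to 0.22.

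Stat5a, which encodes 1 of the 2 transcription factors that carry the receptor's signal to the nucleus, was the member with the smallest adjusted p in both comparisons with control. The control libraries held 14.25, 10.9, 10.7 and 9.82 CPM. The high-fat libraries held 17.3, 27.8, 24.5, 27.0 and 23.2 CPM. The ketogenic libraries held 30.6, 29.8, 18.9, 24.1 and 26.03 CPM. Every library of either fat-rich diet was above every control library. Stat5a rose on the high-fat diet from 11.4 ± 1.94 CPM (SD, n = 4) to 23.96 ± 4.13 CPM (n = 5), a log2 fold change of 1.07 ± 0.17 (edgeR adjusted p = 0.000943). It rose on the ketogenic diet to 25.9 ± 4.75 CPM, a log2 fold change of 1.18 ± 0.17 (edgeR adjusted p = 0.000323). Both calls held whichever of the 14 libraries was left out, with edgeR adjusted p up to 0.00610 and 0.00219. Without ketogenic library 5 the changes were 1.05 and 1.162. Groups without overlap in this direction were found for 9.45% of all genes on the high-fat and 7.38% on the ketogenic diet.

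Stat5b, the neighbouring paralog and the main STAT5 of liver, stood at 43.2 ± 5.17 CPM (SD, n = 4) in controls. Its control libraries held 37.3, 49.7, 41.5 and 44.1 CPM, and its high-fat libraries 55.2, 64.2, 57.1, 60.7 and 63.0 CPM. The groups did not overlap. Stat5b rose to 60.05 ± 3.82 CPM (n = 5) on the high-fat diet, a log2 fold change of 0.48 ± 0.12 (edgeR adjusted p = 0.0213). The ketogenic libraries held 63.2, 52.8, 41.5, 48.0 and 60.6 CPM, and 2 of them lay within the control range. Their mean of 53.2 ± 8.93 CPM gave 0.30 ± 0.12 against control, with an interval from 0.04 to 0.57 (edgeR adjusted p = 0.124), and passed without ketogenic library 3 (edgeR adjusted p = 0.0342). The high-fat call was lost without control library 2, 4 or 5, at edgeR adjusted p of 0.0573, 0.0712 and 0.0502. Stat5a and Stat5b are close in sequence, and the treatment of reads that map to both is not stated in the labels, so the split between them is uncertain. The difference between the fat-rich diets was 0.11 for Stat5a (interval -0.21 to 0.44) and -0.17 for Stat5b (interval -0.42 to 0.07).

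Markers of other cells moved with the diets beside these transducers. The 10 monocyte-derived and lipid-associated macrophage markers summed to 117 to 190 CPM in control, 248 to 396 CPM in high-fat and 140 to 1049 CPM in ketogenic libraries. Of these, 2 rose on the high-fat diet (Gpnmb and Mmp12) and 4 on the ketogenic diet (Gpnmb, Mmp12, Trem2 and Cx3cr1), and none of the 10 was at 0 in a whole group. Without ketogenic library 5 the counts were 8 on the high-fat and 3 on the ketogenic diet. Among all genes, 6.95% were higher on the high-fat and 7.47% on the ketogenic diet with all libraries. Without ketogenic library 5, of 14400 genes, 1472 were higher and 1145 lower on the high-fat diet. On the ketogenic diet 1043 were then higher and 723 lower. The 9 stellate cell and fibroblast markers summed to 317 to 352 CPM in control, 427 to 578 CPM in high-fat and 361 to 750 CPM in ketogenic libraries, with 3 higher on each fat-rich diet. These counts were 5 on the high-fat and 1 on the ketogenic diet without ketogenic library 5. The part of these cells in the values of Stat5a and Stat5b was not tested. Kupffer cell markers summed to 346 to 546, 411 to 665 and 283 to 873 CPM in the same order of diets, with 0 of 10 called on the high-fat and 2 lower on the ketogenic diet by edgeR. On the high-fat diet 2 had an unadjusted p under 0.05 and DESeq2 called 1 lower. With ketogenic library 5 left out, edgeR called 4 higher and 1 lower on the high-fat diet.

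Socs2 encodes a suppressor that binds the receptor and limits its signal, and mice without it grow large. Its control libraries were close together, at 17.4, 19.2, 13.4 and 17.4 CPM. The high-fat libraries held 3.12, 8.06, 5.92, 20.04 and 19.6 CPM, and the ketogenic libraries 3.52, 16.9, 6.84, 2.44 and 50.9 CPM. On the high-fat diet 3 libraries lay below every control and 2 above, and on the ketogenic diet 3 lay below and 1 above. The highest library exceeded the lowest 6.42-fold on the high-fat diet and 20.9-fold on the ketogenic diet, against 1.44-fold among controls. The means were 16.8 ± 2.46 CPM (SD, n = 4) for control, 11.4 ± 7.94 CPM (n = 5) for high-fat and 16.1 ± 20.3 CPM (n = 5) for ketogenic. The log2 fold change was -0.56 ± 0.81 for high-fat (edgeR adjusted p = 0.701) and -0.05 ± 0.80 for ketogenic (edgeR adjusted p = 0.973). Without ketogenic library 5 the second was -1.20 (edgeR adjusted p = 0.278), and with library totals it was 0.22.

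Cish, the other inhibitor of the family and an early STAT5 target, was spread in every diet including control. Its values were 6.50, 12.5, 18.2 and 35.2 CPM in the control libraries. They were 2.77, 22.6, 5.54, 18.5 and 26.9 CPM in the high-fat libraries and 18.8, 6.42, 4.85, 5.10 and 33.2 CPM in the ketogenic libraries. The 3 ranges overlapped almost throughout. The log2 fold changes against control were -0.25 ± 0.76 (interval -1.90 to 1.41, edgeR adjusted p = 0.873) and -0.39 ± 0.76 (interval -2.05 to 1.26, edgeR adjusted p = 0.774). The ketogenic value was -1.05 without ketogenic library 5 and 0.14 without control library 5, with edgeR adjusted p of 0.425 and 0.941.

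Bcl6, a zinc-finger repressor that binds STAT5 regions in mouse liver, had the largest within-diet SD of log2 CPM of the members. Its control libraries held 85.3, 42.7, 13.98 and 4.74 CPM, a 17.997-fold range. The high-fat libraries held 53.5, 14.6, 76.3, 10.9 and 7.51 CPM. The ketogenic libraries held 42.9, 53.6, 93.4, 58.3 and 11.7 CPM. High and low libraries occurred in each diet, and the diet means of 36.7 ± 36.2, 32.6 ± 30.7 and 52.0 ± 29.4 CPM overlapped. Its log2 fold changes were -0.17 ± 0.88 for high-fat and 0.50 ± 0.89 for ketogenic against control (edgeR adjusted p = 0.925 and 0.751). Without control library 2 these were 0.66 and 1.34, and without control library 5 the ketogenic value was 0.13.

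Cux2, a homeobox repressor that is far more abundant in female than in male mouse liver, was near the limit of detection. It had 25 counts in all over the control libraries, 41 over the high-fat and 37 over the ketogenic libraries. In CPM the controls held 0.170, 0.458, 0.461 and 0.228, the high-fat libraries 0.694, 0.296, 0.376, 0.162 and 0.597, and the ketogenic libraries 0.212, 0.242, 0.306, 0.184 and 0.622. The 3 groups overlapped, and no difference was detectable at this depth. In a fit without the filter on low counts, the log2 fold change was 0.33 ± 0.54 for high-fat and -0.07 ± 0.55 for ketogenic against control (edgeR adjusted p = 0.809 and 0.993).

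The spread of the inhibitors and of Bcl6 was large even beside other genes. The SD of log2 CPM within diets was 1.46 for Bcl6, 1.27 for Socs2 and 1.25 for Cish, against a median of 0.28 over all tested genes. Of the tested genes, 99.2% had a smaller SD than Bcl6, and 98.9% a smaller one than either Socs2 or Cish. The receptor, transducers and Igf1 were ordinary in this respect, at 0.23 for Ghr, 0.26 for Stat5a, 0.18 for Stat5b and 0.18 for Igf1. Igfals lay above the median gene at 0.37.

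Because these 3 genes varied within diets, 8 pairs of members were compared library by library after each diet's mean log2 CPM was removed. Bcl6 and Cish ran in opposite directions. Over the 14 libraries Pearson's r was -0.894 (permutation p = 9.0e-05, adjusted p = 0.000720 over the 8 pairs) and Spearman's rho was -0.916 (permutation p = 6.0e-05, adjusted p = 0.000480). Without control library 5 and ketogenic library 5, the 2 farthest from the median of Bcl6, r was -0.861. Taken within diets, the library with more Bcl6 had less Cish in 24 of 26 possible pairs of libraries: 6 of 6 in control, 8 of 10 in high-fat and 10 of 10 in ketogenic. The control library with the most Bcl6, at 85.3 CPM, had the least Cish, at 6.50 CPM. The control library with the least Bcl6, at 4.74 CPM, had the most Cish, at 35.2 CPM. Both genes carry the TTCNNNGAA core in the windows printed above, as does Igfals, which was in none of the 8 pairs. A link between the core and the opposed pattern was not tested.

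The other 7 pairs did not pass the threshold. Bcl6 with Socs2 gave r = -0.538 (permutation p = 0.0269, adjusted p = 0.108) and Socs2 with Cish gave r = 0.582 (permutation p = 0.0550, adjusted p = 0.147). Without ketogenic library 1 the second was 0.73 (permutation test, adjusted p = 0.0460), and without ketogenic library 5 it was 0.41. Ghr with Igf1 gave r = 0.517 (permutation p = 0.0997, adjusted p = 0.199), which was 0.67 without ketogenic library 5 (permutation test, adjusted p = 0.0431) and 0.089 with library totals. With the genes of wide spread, Igf1 gave r = -0.066 with Bcl6, -0.24 with Cish and 0.15 with Socs2. Bcl6 with Cux2 gave r = -0.12, on counts of 3 to 17 per library for Cux2.

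**Figure D2:**
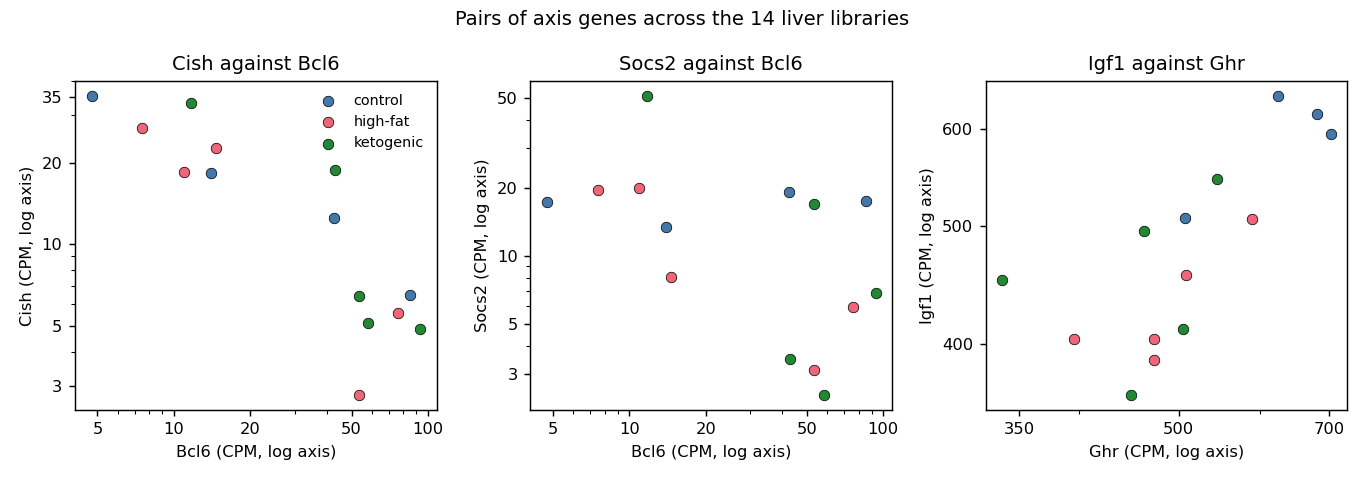
Each point is 1 of the 14 libraries, in CPM on log axes and coloured by diet: Cish against Bcl6, Socs2 against Bcl6, and Igf1 against Ghr. Libraries with high Bcl6 have low Cish within each diet (r = -0.894 after removing diet means), and the other panels are looser.

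Igf1, the main secreted product of the axis and a growth factor that the liver releases into blood, fell on the high-fat diet. The control libraries held 507.1, 594.1, 638.8 and 617.5 CPM. The high-fat libraries held 506.2, 403.8, 388.2, 455.3 and 404.0 CPM. The highest high-fat library was just below the lowest control, so the groups did not overlap, as was so for 6.79% of all genes in this direction. The mean went from 589 ± 57.8 CPM (SD, n = 4) to 431.5 ± 48.9 CPM (n = 5), a log2 fold change of -0.45 ± 0.13 (interval -0.73 to -0.17, edgeR adjusted p = 0.0385). The call was lost without control library 3, 4 or 5 or high-fat library 2, 3, 4 or 5 (edgeR adjusted p of 0.0649 to 0.119), with library totals (-0.33, adjusted p = 0.0534), without the filter on low counts (adjusted p = 0.0740) and with the library number as a covariate (-0.41, adjusted p = 0.0842). All 11 hepatocyte markers also had negative log2 fold changes, with a median of -0.46 on the high-fat and -0.49 on the ketogenic diet, beside -0.45 and -0.38 for Igf1 and -0.37 and -0.45 for Ghr. Their part in the values of Igf1 and Ghr was not tested.

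On the ketogenic diet Igf1 stood at 363.3, 495.1, 546.5, 411.3 and 451.3 CPM. Ketogenic library 3 lay above the lowest control and the other 4 below all controls. The mean of 453.5 ± 71.2 CPM was -0.38 ± 0.13 against control on the log2 scale, with an interval from -0.66 to -0.10 (edgeR adjusted p = 0.0770). DESeq2 called the difference (-0.40, adjusted p = 0.0255), as did edgeR without ketogenic library 3 (adjusted p = 0.0311). The fat-rich diets differed from each other by 0.07, with an interval from -0.20 to 0.34.

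Igfals encodes the acid-labile subunit that holds IGF1 and IGFBP3 in a long-lived complex in blood. Its control libraries held 118.7, 126.9, 146.0 and 125.7 CPM and its high-fat libraries 99.0, 69.6, 76.1, 109.8 and 84.8 CPM, without overlap. The difference was -0.56 ± 0.22 on the log2 scale, from 129 ± 11.7 to 87.8 ± 16.5 CPM, and did not pass the threshold (edgeR adjusted p = 0.105). It passed without ketogenic library 5 (adjusted p = 0.0316) and in a fit on these 2 diets alone (adjusted p = 0.0126). The ketogenic libraries held 79.8, 119.2, 160.3, 113.2 and 62.2 CPM, spanning the control range on both sides, at a mean of 107 ± 37.996 CPM and a log2 fold change of -0.27 ± 0.22 (edgeR adjusted p = 0.430). This was -0.15 without ketogenic library 5 and -0.47 without ketogenic library 3.

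Set per kilobase of exon, so that genes of different length can be compared, Ghr was the most abundant member on the control diet at 136 ± 18.9 CPM per kilobase. Igf1 followed at 59.5 ± 5.84 and Igfals at 49.3 ± 4.45 CPM per kilobase. Bcl6 (10.4) and Stat5b (7.79) came next, then Socs2 (6.24), Cish (4.97) and Stat5a (2.88), all in CPM per kilobase. The spread of Bcl6 and Cish covers most of their neighbours in this order. On the fat-rich diets Stat5a stood at 6.04 and 6.53 CPM per kilobase, between Cish and Stat5b. Cux2 was last on each diet, at 0.0364 CPM per kilobase on the control diet.

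Other genes of growth hormone signaling were followed through a list of 27, all of which passed the filter. On the high-fat diet 1 rose and 1 fell by edgeR, and on the ketogenic diet 1 rose and 1 fell. Among all genes, 12.0% were called on the high-fat and 12.1% on the ketogenic diet. Without ketogenic library 5, 26 were tested. EdgeR then called 3 higher and 2 lower on the high-fat diet and 2 higher and 1 lower on the ketogenic diet. Of all 14400 genes in that fit, 1472 were higher and 1145 lower on the high-fat diet, and 1043 and 723 on the ketogenic diet. With all libraries DESeq2 called 2 higher and 2 lower on each diet. Of all 14627 genes it called 1305 higher and 1136 lower on the high-fat diet, and 1366 and 1056 on the ketogenic diet. The median over the list, as a log2 fold change against control, was 0.07 for high-fat and 0.0046 for ketogenic, beside 0.01 and 0.03 for all genes. Between the fat-rich diets 0 were called by edgeR, 0 had an unadjusted p under 0.05 and DESeq2 called 0. The gene that edgeR called lower on both diets with all libraries was Lepr, the leptin receptor, a cytokine receptor that also signals through JAK2. Its control libraries held 11.3, 26.8, 16.3 and 24.4 CPM. The high-fat libraries held 2.98 to 4.56 CPM and the ketogenic libraries 1.17 to 8.64 CPM, all below every control. The log2 fold change was -2.40 ± 0.48 for high-fat (edgeR adjusted p = 0.00569) and -2.59 ± 0.48 for ketogenic (edgeR adjusted p = 0.00310).

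Ptpn6, a phosphatase that damps JAK-STAT signaling and is abundant in blood-derived cells, rose on the high-fat diet from 17.3 to 28.2 CPM, by 0.70 ± 0.21 on the log2 scale (edgeR adjusted p = 0.0410). All 5 high-fat libraries lay above the 4 controls. The call was kept in 6 of 14 fits that each left out 1 library. It was lost without control library 3, 4 or 5, high-fat library 2, 3, 4 or 5 or ketogenic library 2, with edgeR adjusted p of 0.0541 to 0.117, with library totals (adjusted p = 0.0597) and with the library number as a covariate (adjusted p = 0.0609). Ptpn6 averaged 24.4 CPM in the ketogenic libraries, a difference from control that was not called in any fit run. Its highest value, 40.4 CPM, was in ketogenic library 5, which also held the most macrophage markers. The part of those cells in the Ptpn6 values was not tested. Tox, a nuclear factor with higher levels in female mouse liver, rose on the ketogenic diet from 3.23 to 7.86 CPM, by 1.28 ± 0.36 (edgeR adjusted p = 0.0277), and the call was kept in 9 of the 14 such fits. It was lost without control library 2, 3 or 4 or ketogenic library 1 or 2, with edgeR adjusted p of 0.0573 to 0.0870, without the filter on low counts (0.0605) and in the fit on these 2 diets alone (0.0639). On the high-fat diet Tox was not called by edgeR with all libraries. DESeq2 called it higher there (1.03, adjusted p = 0.0260), as did edgeR with library totals (1.20, adjusted p = 0.0391) and without ketogenic library 5 (1.03, adjusted p = 0.0313). The difference between the fat-rich diets was not called in any fit run.

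Jak2, the gene of the receptor-bound kinase, had log2 fold changes of 0.08 and -0.13 (edgeR adjusted p = 0.825 and 0.704). Socs3, a cytokine-induced inhibitor, stood at 0.11 and 0.33 (edgeR adjusted p = 0.820 and 0.426). Prlr, the prolactin receptor, stood at 0.29 and 0.05 (edgeR adjusted p = 0.392 and 0.901). Hnf4a, a factor that maintains hepatocyte identity, was at 859 CPM in control, 588 CPM in high-fat and 610 CPM in ketogenic libraries, with log2 fold changes of -0.55 ± 0.17 and -0.49 ± 0.17 just outside the threshold (edgeR adjusted p = 0.0506 and 0.0748). Onecut1, a liver factor under growth hormone control in rodents, also varied within diets, with 6.50 to 40.1 CPM in control, 4.61 to 31.2 CPM in high-fat and 3.14 to 24.02 CPM in ketogenic libraries. Its differences from control, -1.10 ± 0.74 and -1.30 ± 0.74, did not pass (edgeR adjusted p = 0.363 and 0.277).

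The second list held 17 IGF ligands, receptors, binding proteins and proteases, 13 of which passed the filter. The 4 below it were Igf2, Pappa, Pappa2 and Stc1, and Igf2, the fetal growth factor, had 0 to 6 counts per library. On the high-fat diet 1 of the 13 fell and 0 rose by edgeR, beside 12.0% of all genes called. Without ketogenic library 5, edgeR called 1 higher and 2 lower on that diet, and 1472 higher and 1145 lower of all 14400 genes. With all libraries DESeq2 called 1 higher and 1 lower, and 1305 higher and 1136 lower of all 14627 genes. EdgeR called 12.1% of all genes on the ketogenic diet. On the ketogenic diet edgeR called 0, 1 had an unadjusted p under 0.05 and DESeq2 called 0. The gene that edgeR called lower on the high-fat diet with all libraries was Igfbp2, an IGF binding protein made by hepatocytes. Its control libraries held 635, 561, 372 and 443 CPM and its high-fat libraries 341, 114, 93.1, 160 and 158 CPM. All 5 high-fat libraries lay below the 4 controls, with high-fat library 1 close to the lowest control. The mean fell from 503 to 173 CPM, by 1.54 ± 0.42 on the log2 scale (edgeR adjusted p = 0.0284). The call was kept in 7 of the 14 fits that each left out 1 library and was lost in the others at edgeR adjusted p of 0.0525 to 0.0705, when control library 2, 3 or 5 or high-fat library 2, 3, 4 or 5 was left out. It was also lost without the filter on low counts (adjusted p = 0.0907).

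Igfbp2 in the ketogenic libraries stood at 369, 709, 768, 560 and 174 CPM. Apart from ketogenic library 5, these values lay above every high-fat library, with ketogenic library 1 just below the lowest control. The difference between ketogenic and control was 0.04 ± 0.41 (edgeR adjusted p = 0.964), and between ketogenic and high-fat 1.57 ± 0.40 (edgeR adjusted p = 0.180). The second passed without ketogenic library 5 (1.79, edgeR adjusted p = 0.0180) and by DESeq2 (adjusted p = 0.0255). Igfbp1, a binding protein raised by fasting and low insulin, stood at 15.9 CPM in control, 47.9 CPM in high-fat and 31.8 CPM in ketogenic libraries, and its differences of 1.59 ± 0.79 and 1.005 ± 0.78 did not pass (edgeR adjusted p = 0.219 and 0.432). Igfbp3, the partner of IGFALS in the circulating complex, stood at 0.12 and -0.04 against control (edgeR adjusted p = 0.695 and 0.912).

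**Figure D3:**
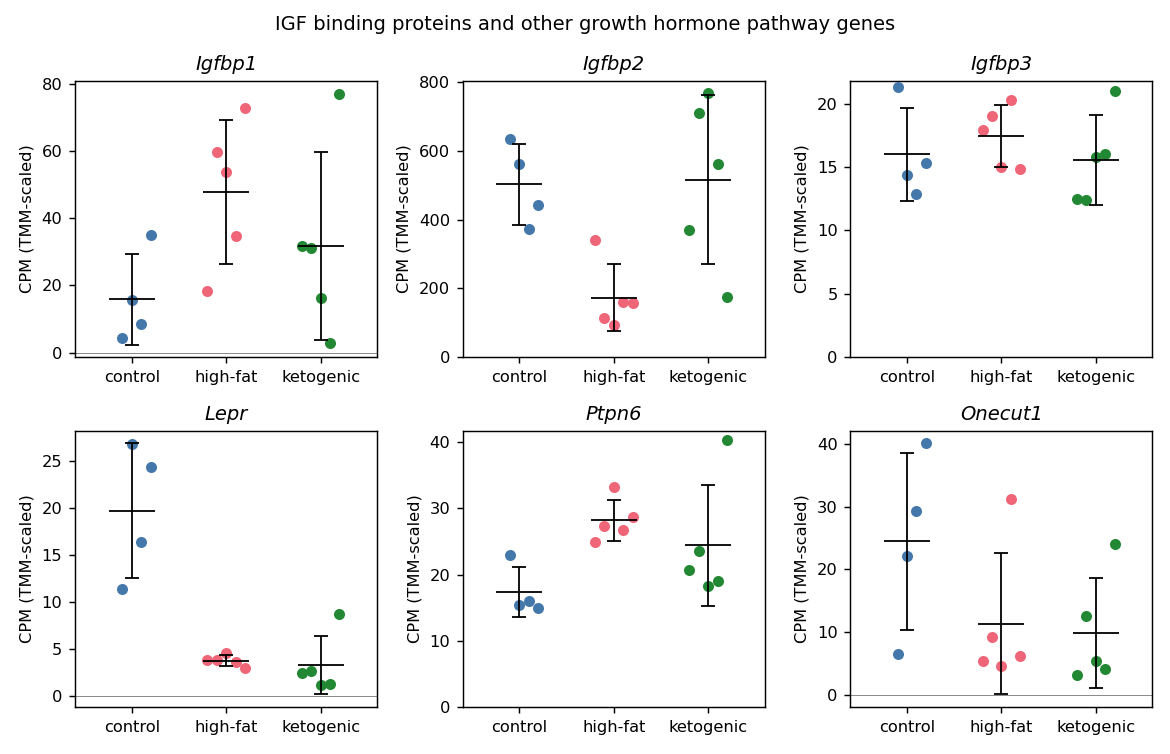
Level in CPM (TMM-scaled) in each library of 3 IGF binding proteins and of Lepr, Ptpn6 and Onecut1, by diet, with the mean and SD as bars. The high-fat values of Igfbp2 lie at 93.1 to 341 CPM, below the controls, and Lepr lies below its controls on both fat-rich diets.

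Genes listed as male-biased or female-biased in liver were described through a list for each sex. The part of growth hormone in their values was not tested. The shares of all genes called, for reading beside them, were 6.95% higher and 5.01% lower on the high-fat diet. On the ketogenic diet these shares were 7.47% and 4.60%. All 33 male-biased genes listed passed the filter, and on the high-fat diet 8 fell, 0 rose and 25 did not pass, with a median log2 fold change of -1.20 beside 0.01 for all genes. DESeq2 called 17 lower and 1 higher, and of all 14627 genes it called 1136 lower and 1305 higher. Leaving out ketogenic library 5, edgeR called 15 lower and 1 higher. Of all 14400 genes in that fit it called 1145 lower and 1472 higher. On the ketogenic diet 4 fell, 1 rose and 28 did not pass, with a median of -0.73, and DESeq2 called 9 lower and 1 higher. Of all genes, DESeq2 called 1056 lower and 1366 higher on that diet. The summed level of the 33 was 41338 to 51598 CPM in control, 14720 to 35723 CPM in high-fat and 11869 to 44944 CPM in ketogenic libraries. The 11 hepatocyte markers fell too, with medians of -0.46 on the high-fat and -0.49 on the ketogenic diet. The part of hepatocyte content in the male-biased values was not tested. This list was compiled from textbook knowledge with earlier results of these data known.

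Egfr, the epidermal growth factor receptor, fell by 2.19 ± 0.51 on the log2 scale, from 988 to 217 CPM on the high-fat diet (edgeR adjusted p = 0.0142), and was at -1.31 ± 0.50 on the ketogenic diet (edgeR adjusted p = 0.105). Gstp1, a glutathione transferase, fell by 1.59 ± 0.37, from 1656 to 552 CPM on the high-fat diet (edgeR adjusted p = 0.0125), and was at -1.12 ± 0.36 on the ketogenic diet (edgeR adjusted p = 0.0591). Ugt2b38, a glucuronosyltransferase with close paralogs, fell on both, by 2.59 ± 0.52 and 1.63 ± 0.50 (edgeR adjusted p = 0.00539 and 0.0448). Its ketogenic groups overlapped, with ketogenic libraries 3 and 4 at 5.67 and 3.95 CPM and control library 5 at 3.14 CPM. The ketogenic call of Ugt2b38 was not examined under other settings. Moxd1, a monooxygenase-like protein, had 1208, 72, 1624 and 47 counts in the 4 control libraries. It had 11 counts in high-fat library 1 and 0 in the other 4, and 0 to 2 in each ketogenic library, with edgeR adjusted p of 0.00232 and 0.00127. Moxd1 passed the filter only through the control libraries, where it was high, so these p-values are no separate support for a fall. The counts of male-biased genes that fell include it.

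Cyp2c70, which makes muricholic acids in mice, fell on both diets, by 1.43 ± 0.39 on the high-fat and 1.69 ± 0.39 on the ketogenic diet (edgeR adjusted p = 0.0288 and 0.0120). Ugt2b1 likewise fell by 0.82 ± 0.21 and 0.73 ± 0.21 (edgeR adjusted p = 0.0175 and 0.0299). Its ketogenic call was lost without control library 3, 4 or 5 or ketogenic library 1 or 2, with edgeR adjusted p of 0.0653 to 0.0818. Car3, a carbonic anhydrase, went against the list and rose by 1.10 ± 0.27 on the ketogenic diet (edgeR adjusted p = 0.0149), from 2260 to 4856 CPM. The call was lost without control library 3 (adjusted p = 0.0528). On the high-fat diet all 5 libraries lay above the controls, at 0.80 ± 0.27 (edgeR adjusted p = 0.0663). Its ketogenic libraries held 4013, 4650, 7446, 6156 and 2015 CPM, and library 5 alone was not above the controls. Members of the Cyp, Ugt and Mup families share reads with paralogs, so the level of any single such gene is uncertain.

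Of 38 female-biased genes listed, 30 passed the filter. The filter keeps a gene that is high on 1 diet alone, so genes near 0 in control entered only through a diet where they were high. The counts and medians of this list may therefore lean toward rises, and the genes below the filter are not in them. On the high-fat diet 16 rose, 2 fell and 12 did not pass, with a median log2 fold change of 1.601, and on the ketogenic diet 10 rose, 3 fell and 17 did not pass, with a median of 1.361. Without ketogenic library 5 the ketogenic median was 0.53, with 10 higher and 6 lower. Of all 14400 genes in that fit, 1043 were higher and 723 lower. The single genes named in this paragraph all rose against control, so the 2 and 3 that fell are not among them. Cd36, a fatty acid transporter that also marks macrophages and adipocytes, rose from 28.5 CPM to 248 CPM on the high-fat and 226 CPM on the ketogenic diet, by 3.12 ± 0.29 and 2.99 ± 0.29 (edgeR adjusted p = 1.86e-05 and 2.1e-05). Cyp2b9, a female-specific cytochrome P450 of mouse liver, rose from 0.632 CPM to 111 and 109.97 CPM (edgeR adjusted p = 0.000343 and 0.000196). Its paralog Cyp2b13, chosen after its values were seen, had 0 counts in all controls and 1391 over the high-fat libraries, at least 344-fold higher when the control group as a whole is set at 3 counts. Slc16a5, a transporter of the monocarboxylate family, rose by 2.71 ± 0.40 and 2.82 ± 0.40 (edgeR adjusted p = 0.000868 and 0.000460). Acot3, a peroxisomal thioesterase, rose by 2.99 ± 0.45 and 2.38 ± 0.44 (edgeR adjusted p = 0.000964 and 0.00306), and Abcd2, a peroxisomal transporter, by 1.84 ± 0.31 and 1.80 ± 0.31 (edgeR adjusted p = 0.00182 and 0.00159). The macrophage markers given above moved with this list too, and their part in it was not tested.

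Between the fat-rich diets, edgeR called 1 of the 30 female-biased genes, and 4 lower without ketogenic library 5, as many as DESeq2 called lower with all libraries. Calls over all genes rose too, from 1 higher and 8 lower by edgeR with all libraries. They were 135 higher and 180 lower without ketogenic library 5, and 62 higher and 111 lower by DESeq2. The gene edgeR called with all libraries was Cyp17a1, an enzyme of steroid synthesis. It held 41.8 to 105 CPM in high-fat libraries, 3.42 to 14.3 CPM in ketogenic libraries and 12.2 to 18.5 CPM in control libraries. The ketogenic level was lower than the high-fat level by 3.17 ± 0.33 on the log2 scale (edgeR adjusted p = 0.00201). Of the male-biased genes, edgeR called 0 of 33 in this comparison, with 6 at an unadjusted p under 0.05, and DESeq2 called 1 higher. Without ketogenic library 5, edgeR called 2 higher.

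**Figure D4:**
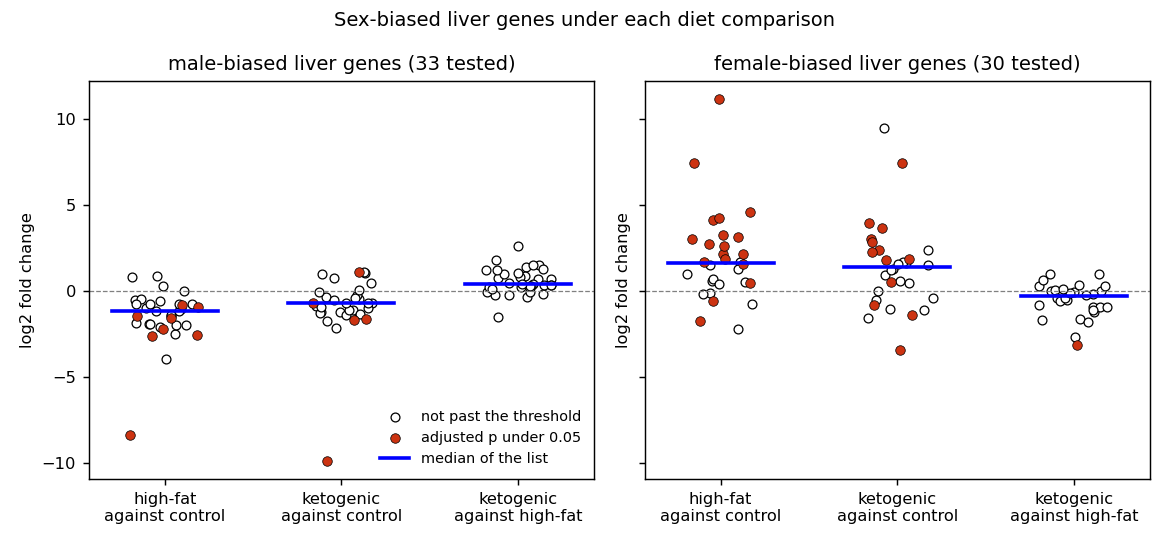
Male-biased and female-biased liver genes in the comparisons of diets. The medians against control are -1.20 (high-fat) and -0.73 (ketogenic) for the male-biased genes and 1.601 and 1.361 for the female-biased genes, on the log2 scale, and filled points passed the threshold. Only genes that passed the filter are shown, so female-biased genes near 0 in control entered only through a diet where they were high. The male-biased gene Moxd1 entered only through its control libraries. The highest high-fat point is Cyp2b13, whose fitted value rests on controls at 0 counts.

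The genes whose pattern over the 14 libraries was most like a member's were found by the root-mean-square difference of standardised log2 CPM, searched over 11647 genes whose median difference from Bcl6 was 1.361. Closest to Bcl6 were Utp14a (0.506), Bcar3 (0.553) and Prox1 (0.584). Closest to Cish were Rab5a (0.519), Ssx2ip (0.524) and Tubgcp5 (0.536), and to Socs2 they were Pigm (0.518), Ly6e (0.586) and Sp140 (0.600). Igf1 had closer neighbours, Bag5 (0.394), Pitpnb (0.401) and Akt1 (0.423). Those of Cux2 were more distant, Peg13 (0.659), Jdp2 (0.698) and Slc9a9 (0.708). The values are distances in SD units over 14 libraries and are given as a description.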

How the data were processed

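The authors deposited a table of raw read counts per Ensembl gene for bulk liver RNA-seq. Per the labels' protocols, libraries were made from poly(A) RNA with a stranded directional kit. Named in the submitters' processing notes, with no role or order, are STAR 2.7.9a, featureCounts 1.6, cutadapt 1.16, DESeq2 1.36.0 and the build GRCm39. The labels do not state how reads mapping to several genes were handled, which matters for paralogs. Symbols came from GENCODE M21 and matched 91.39% of identifiers.

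Counts were analysed with edgeR 4.0.16 in R 4.3.3: filterByExpr (minimum count 10, minimum total 15), TMM scaling, robust dispersion and 1 quasi-likelihood fit over the 3 diets. Two-sided p-values were adjusted by Benjamini-Hochberg over 14627 genes (threshold 0.05), and SEs and 95% intervals come from that fit. Counting error and the number of libraries limit precision, with 16329425 to 25349148 counts per library. None of the 91 pairs of libraries held identical values (Spearman 0.934 to 0.990). Pairs of members were tested on log2 CPM (prior count 2) with 100000 permutations within diets. The scripts were tested on simulated data. DESeq2 1.42.0, other scalings, no filter, fits on 2 diets, a replicate block, the library number as a covariate and leaving out each library were the alternatives. For a single sex-biased gene these were examined only in a comparison where it was among the up to 4 named by adjusted p. Promoter windows are RefSeq's on GRCm38.p6 and were used for their letters only, since the counts use another build. Exon lengths are from GENCODE M21.

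The members and gene lists were chosen with earlier results of these data known. Named genes were all members, up to 8 called genes of each growth hormone and IGF list and up to 4 of each sex-biased list per comparison by adjusted p, uncalled list genes whose role bears on a member, and the 3 genes most like Bcl6, Cux2, Igf1, Socs2 and Cish.

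Marker lists of other cells were also summed per library. T and NK cell markers reached 6.87 to 9.16 CPM in control, 4.44 to 8.02 CPM in high-fat and 3.86 to 23.3 CPM in ketogenic libraries, and B and plasma cell markers 137 to 308, 76.0 to 228 and 41.4 to 333 CPM. Neutrophil markers reached 2.97 to 89.3, 4.74 to 16.9 and 2.45 to 15.2 CPM, sinusoidal endothelial markers 276 to 356, 284 to 379 and 245 to 348 CPM, and cholangiocyte markers 30.4 to 48.0, 58.5 to 95.3 and 31.1 to 202 CPM. Pancreatic acinar markers reached 25.6 to 1761, 114 to 791 and 6.96 to 362 CPM, and adipocyte markers 12.2 to 27.0, 53.2 to 156 and 103 to 242 CPM. Of these lists, edgeR called 1 endothelial marker lower on each fat-rich diet and 1 (high-fat) and 2 (ketogenic) adipocyte markers higher. Without ketogenic library 5, 3 B and plasma cell markers were lower on the ketogenic diet, and 1 T and NK cell marker was lower and 1 cholangiocyte marker higher on the high-fat diet. The calls over all genes in both fits are given above. One hepatocyte marker, Tf, was not matched by symbol.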

Additional observations from a re-analysis of the deposited data

Results flagged for a closer look

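Among 39 groups of libraries in which 1 library was compared with the rest of its diet, 5 had a library set apart by Dixon's criterion at the 95% level. Chance alone gives about 1 in 20. Cux2 was at 0.622 CPM in ketogenic library 5, against 0.184 to 0.306 CPM in the other 4 libraries of that diet. Lepr was at 8.64 CPM in the same library, against 1.17 to 2.66 CPM in the others. Ptpn6 was at 40.4 CPM there, against 18.3 to 23.6 CPM. Ptpn6 was also apart in control library 2, at 22.96 CPM against 14.96 to 15.98 CPM in the other controls. Igfbp2 in high-fat library 1 was at 341 CPM, against 93.1 to 160 CPM in the other high-fat libraries.

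The control library that the submitters excluded as contaminated held 2 members above the range of the 4 analysed controls. In CPM of the library total, Stat5b was at 50.1 against 35.8 to 47.9, and Cish was at 46.0 against 6.24 to 31.2. This library entered no comparison.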

How the results depend on the processing

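The rise of Stat5a on both diets and the opposed pattern of Bcl6 and Cish (r from -0.921 to -0.868, leaving out each library) passed the threshold under all alternatives run. Leaving out each library gave 1 to 4 members called on the high-fat diet, 1 to 4 on the ketogenic diet and 0 between the fat-rich diets, with 934 to 2617, 1056 to 2201 and 1 to 315 genes called. The highest last count came without ketogenic library 5. Genes called between the fat-rich diets numbered 15 with library totals, 26 without the filter, 173 with DESeq2, 1 in the fit on these diets alone, 15 with the replicate block and 3 with the library number as covariate. The cause was not tested.

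DESeq2 called 3 members on the ketogenic diet (Stat5a, Ghr and Igf1), and the replicate block left 1 on the high-fat diet, with Stat5b at 0.46 (adjusted p = 0.0621) and Igf1 at -0.44 (adjusted p = 0.113). On the ketogenic diet the block also ended the calls of Tox (adjusted p = 0.0749) and Car3 (adjusted p = 0.0606). Same-numbered libraries did not deviate together: 13 pairs had correlations from -0.404 to 0.418, and 3 of 14 libraries were closest to their own number. Library totals shifted the median gene by 0.127 (high-fat) and 0.177 (ketogenic) on the log2 scale. Ghr with Igf1 reached r = 0.73 (permutation test, adjusted p = 0.00984) when diet means were not removed, and Cish with Igf1 turned to 0.036 with library totals.

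Signs turned only where no difference was called. Socs2 on the ketogenic diet was 0.22 with library totals, Cish on the high-fat diet 0.11 with the library number, and Igfbp2 on the ketogenic diet -0.10 with the block. Leaving out each library gave ranges that cross 0 for Bcl6 (-0.77 to 0.66) and Cish (-0.55 to 0.30) on the high-fat diet, and for Socs2 (-1.20 to 0.21), Cish (-1.05 to 0.14) and Igfbp2 (-0.15 to 0.24) on the ketogenic diet. Between the fat-rich diets the ranges were -0.15 to 0.0090 for Ghr, -0.63 to 0.81 for Socs2, -0.79 to 0.16 for Cish, -0.0040 to 0.14 for Igf1 and -0.99 to 0.021 for Lepr. Over the pairs, r ranged -0.24 to 0.14 for Bcl6 with Igf1, -0.28 to 0.14 for Bcl6 with Cux2, -0.060 to 0.39 for Socs2 with Igf1, -0.62 to -0.37 for Bcl6 with Socs2, 0.41 to 0.73 for Socs2 with Cish and 0.40 to 0.67 for Ghr with Igf1. Cux2 is limited by depth.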

Other observations

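The control library left out of all comparisons held Igf1 at 410 CPM of its library total, below the 486 to 581 of the 4 analysed controls, and Igfals at 87.1, below their 111 to 133. Its Bcl6 value was 21.2, and its Ghr and Socs2 values lay within the range of the controls. These values were not used in any comparison.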
